A study of Rattus norvegicus with 24 samples.

Results

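The miR-183, miR-96 and miR-182 cluster was followed in small RNA sequencing counts of rat brain by taking every listed strand of rno-miR-183, rno-miR-96 and rno-miR-182. That rule found 5 of the 728 listed miRNAs, namely rno-miR-182, rno-miR-183-5p, rno-miR-96-5p, rno-miR-183-3p and rno-miR-96-3p. The 24 libraries came from 12 adult male Sprague-Dawley rats, 6 with traumatic brain injury (TBI) by lateral fluid percussion, in which a fluid pulse is delivered onto the exposed dura, and 6 sham-operated controls that were operated on without the pulse. Each rat gave a library of the perilesional cortex, next to the lesion, and a library of the thalamus of the same side, both 3 months after the operation. The study describes the sequenced TBI rats as selected for signs of chronic inflammation, with magnetic resonance imaging used to tell such animals apart, so they stand for that kind of injured animal. Rats are named below by the numbers in their sample titles (22, 24, 45, 52, 56 and 63 with TBI, 26, 32, 34, 38, 50 and 55 sham-operated), and the libraries of a rat carry the same number in both regions.

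The cluster is a group of miRNA genes that lie close together on the same strand and are made from a shared precursor transcript. Its members are best known from sensory cells, such as photoreceptors, the hair cells of the inner ear and sensory neurons, and inherited changes in the seed of miR-96 cause hearing loss. A miRNA finds its target messenger RNAs mainly through its seed, bases 2 to 8 from the 5′ end, and the members of this cluster have closely related seeds.

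The mature sequences of the 3 members with most reads are shown because their likeness sets how they can be told apart in reads and which targets they could share. They are RefSeq sequences of the build GRCr8, written 5′ to 3′ with the seed in capitals.
miR-182: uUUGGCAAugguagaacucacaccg
miR-96-5p: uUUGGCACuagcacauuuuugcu
miR-183-5p: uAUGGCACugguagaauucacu
The 5 mature sequences of the cluster had 5 distinct seeds, and no other mature sequence among the 655 of 728 listed miRNAs that could be matched to RefSeq held any of them. Counted from 1 at the 5′ end, the seed of miR-182 differed from that of miR-96-5p by A8C, the seed of miR-96-5p differed from that of miR-183-5p by U2A, and the seed of miR-182 differed from that of miR-183-5p by U2A and A8C. Over their whole length miR-182 and miR-183-5p were the most alike, with 18 of 22 compared bases the same (U2A, A8C, C17U and A22U). miR-182 and miR-96-5p shared 12 of 23 bases, and miR-96-5p and miR-183-5p shared 13 of 22. The rule by which the authors assigned reads that fit more than 1 miRNA was not given in the sources used here.

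In GRCr8 all 3 hairpins lie on the minus strand of chromosome 4, where RefSeq places Mir182 at chr4:59752246-59752307, Mir96 at chr4:59755841-59755946 and Mir183 at chr4:59756044-59756153. Mir96 and Mir183 are 97 bases apart, and 3533 bases separate Mir182 from Mir96. The nearest protein-coding genes on the 2 sides are Nrf1 and Ube2h. A further miRNA gene, Mir3553, overlaps Mir183 on the plus strand, and rno-miR-3553 had 0 reads in the 24 libraries.

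The cluster was scarce in both regions. miRNA reads per library ran from 744564 to 4069284 in cortex and from 523298 to 4139901 in thalamus, and levels are given as CPM, reads scaled to a common library total with TMM (trimmed mean of M-values, which corrects for differences in makeup between libraries). Under this scaling 1 read was worth 0.342 to 1.56 CPM in cortex and 0.206 to 2.24 CPM in thalamus. miR-182 had 1107 reads over the 24 libraries, of which 273 came from cortex and 834 from thalamus, and its mean of 18.9 CPM placed it at rank 307 of the 728 listed miRNAs, 613 of which had any read. miR-183-5p had 665 reads, 251 in cortex and 414 in thalamus, with a mean of 12.9 CPM and rank 338. These 2 members had reads in all 24 libraries. miR-96-5p had 42 reads in 14 libraries and a mean of 0.743 CPM.

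The 3p strands, which are usually degraded when the hairpin is processed, were all but absent. miR-183-3p had 2 reads in total, 1 in the thalamus of sham rat 50 and 1 in the thalamus of TBI rat 24, and miR-96-3p had none in any library. A count of 0 allows up to 3 reads, which was 1.03 to 4.67 CPM in a cortex library and 0.619 to 6.71 CPM in a thalamus library. Intervals and limits of this kind cover counting error only.

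miR-182, the most abundant member, was present in sham cortex at 3.70 to 16.0 CPM with a median of 8.37. In TBI cortex the lowest library had 7.79, the median was 9.64 and the highest had 62.8 CPM. In sham thalamus it was at 11.1 to 51.9 CPM with a median of 15.9. The TBI cortex median thus lay within the sham cortex range, and a single high library set the upper end of each group other than sham cortex. In TBI thalamus the lowest library had 8.50, the median was 14.2 and the highest had 91.0 CPM. The group means ± SD (n = 6 each) were 9.02 ± 4.30 CPM in sham cortex, 19.1 ± 21.6 in TBI cortex, 22.0 ± 15.4 in sham thalamus and 25.5 ± 32.2 in TBI thalamus. The SD was larger than the mean in both TBI groups, and all 4 groups overlapped.

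miR-183-5p was at 8.02 to 12.0 CPM in sham cortex with a median of 9.46, the narrowest range of any group. TBI cortex ran from 2.87 to 62.0 CPM with a median of 8.23. Sham thalamus ran from 2.46 to 35.6 CPM with a median of 9.58. The spread among TBI cortex libraries was thus far wider than among sham cortex libraries, and the values below the single high library were within or under the sham range. TBI thalamus had its lowest library at 3.05, its median at 6.63 and its highest at 40.9 CPM. The means ± SD (n = 6 each) were 9.82 ± 1.56 CPM in sham cortex, 16.4 ± 22.5 in TBI cortex, 13.4 ± 11.7 in sham thalamus and 11.9 ± 14.4 in TBI thalamus. No neighbours in the order of these group means were separated by more than their spread, for miR-183-5p or for miR-182.

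**Figure D1:**
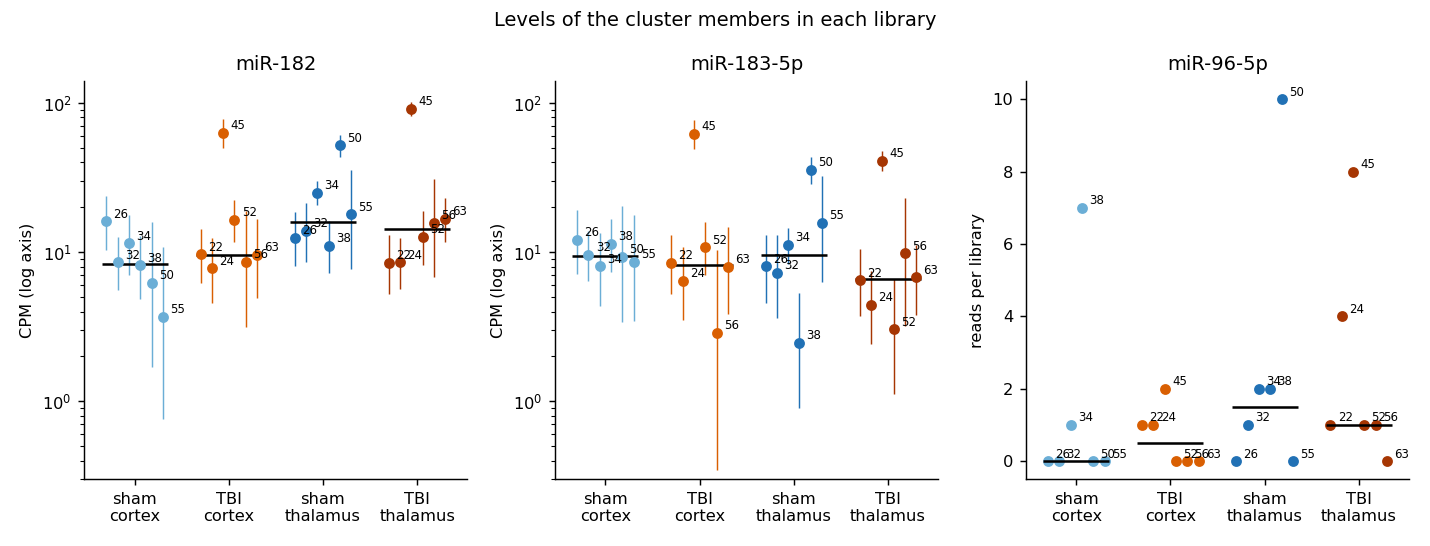
Each point is 1 library, labelled with its rat number, in the 4 groups; the first 2 panels give miR-182 and miR-183-5p in CPM on log axes with exact Poisson 95% intervals, and the third gives miR-96-5p in reads on a linear axis. Black lines are group medians. Rat 45 was the highest TBI library in both regions for miR-182 and miR-183-5p, rat 50 the highest sham thalamus library, and miR-96-5p had at most 10 reads.

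The same rat was high in both TBI groups. TBI rat 45 had 82 reads of miR-182 in cortex, or 62.8 CPM with an exact Poisson 95% interval of 49.9 to 77.9, and its level was 3.83 times that of the next TBI cortex library. For miR-183-5p its cortex held 81 reads, or 62.0 CPM (49.3 to 77.1), 5.75 times the next library. Its thalamus held 374 reads of miR-182, at 91.0 CPM and 5.45 times the next TBI thalamus library. With 168 reads of miR-183-5p, at 40.9 CPM, this thalamus stood 4.16 times above the next. Rat 45 therefore supplied 45.8% of the miR-182 reads and 52.9% of the miR-183-5p reads of the TBI cortex group. Of the reads of the TBI thalamus group it supplied 76.0% for miR-182 and 75.0% for miR-183-5p. These are shares of raw reads, which also depend on depth. The thalamus library of rat 45 was the deepest of its group, with 3510576 miRNA reads against 2770987 in the next. Its cortex library had 1298324, within a group range of 757810 to 2592699, so the shares of the 2 regions cannot be set against each other.

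Among sham rats the thalamus of rat 50 stood apart. It held 140 reads of miR-182, or 51.9 CPM (43.6 to 61.2), 2.08 times the next sham thalamus library, which was that of rat 34 with 121 reads. For miR-183-5p it held 96 reads, or 35.6 CPM (28.8 to 43.4), 2.27 times the next. The cortex of rat 50 was not high, with 4 reads of miR-182 and 6 of miR-183-5p, at 6.22 and 9.33 CPM.

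The same libraries were then compared over all miRNAs. Of 361 miRNAs tested in both regions, rat 45 was the highest TBI library for 53 (14.7%) in cortex and 88 (24.4%) in thalamus, and rat 50 was the highest sham thalamus library for 48 (13.3%). The other libraries of these groups were highest for 13.0% to 22.4%, 9.70% to 25.8% and 6.37% to 33.2%, so each of the 3 shares lay within the range of its group. By the fold over the next library of the group, miR-183-5p and miR-182 ranked 2 and 3 of 361 in the cortex of rat 45. They were at places 8 and 5 in its thalamus, and at places 1 and 2 in the thalamus of rat 50. These libraries were singled out for their high levels of the same 2 miRNAs. High places follow from that choice, so they describe the size of the gap only. Without rats 45 and 50 the miR-182 means were 9.59 ± 4.55 CPM in sham cortex, 10.4 ± 3.44 in TBI cortex, 16.1 ± 5.60 in sham thalamus and 12.4 ± 3.87 in TBI thalamus (n = 5 each). The same means for miR-183-5p were 9.92 ± 1.73, 7.31 ± 2.93, 8.91 ± 4.89 and 6.11 ± 2.58 CPM. With these rats left out no SD exceeded its mean.

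miR-96-5p, the member known for its part in hearing, was near the limit of detection. In cortex rat 38 had 7 reads, rat 45 had 2, rats 22, 24 and 34 had 1 each and the other libraries had none. In thalamus rat 50 had 10 reads, rat 45 had 8, rat 24 had 4, rats 34 and 38 had 2 each, rats 22, 32, 52 and 56 had 1 each, and rats 26, 55 and 63 had none. Scaled for depth, rat 50 was the highest sham thalamus library at 3.70 CPM, while rat 45 at 1.95 CPM was level with rat 56, whose single read was 1.97 CPM. In cortex the most reads were in sham rat 38, whose miR-182 was at 8.17 CPM. Along with both 3p strands, miR-96-5p fell under the filter on low counts and was not tested for injury or region.

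The injury comparison asked whether TBI changed the cluster in each region at 3 months. Neither miR-182 nor miR-183-5p passed an adjusted p of 0.05 in either region. The values moved widely when rat 45 was left out, and in thalamus also when rat 50 was. In cortex, edgeR's quasi-likelihood test gave miR-182 a log2 fold change of TBI over sham of 1.06 (SE 0.53, adjusted p = 0.251) and miR-183-5p one of 0.77 (SE 0.57, adjusted p = 0.421). Of all 371 miRNAs tested in cortex, 21 passed (5.66%), 11 higher (2.96%) and 10 lower (2.7%) in TBI, and the median log2 fold change over all of them was 0.05. Without rat 45 the miR-182 value was 0.14 (SE 0.32, adjusted p = 0.862 in edgeR). The miR-183-5p value turned to -0.38 (SE 0.26, adjusted p = 0.427 in edgeR), that is, lower in TBI rats.

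In thalamus the log2 fold change of TBI over sham was 0.21 for miR-182 (SE 0.60, edgeR adjusted p = 0.960) and -0.11 for miR-183-5p (SE 0.67, edgeR adjusted p = 0.986). Of the 390 miRNAs tested there, 2 passed (0.513%), and 22 had an unadjusted p under 0.05. These near-zero values were the balance of a high rat on each side. Without rat 45 they were -0.84 for miR-182 and -1.18 for miR-183-5p, without sham rat 50 they were 0.84 and 0.72, and without both rats they were -0.39 and -0.49. None of these values passed an adjusted p of 0.05 in edgeR.

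The 24 libraries were then fitted together to ask whether the injury effect differed between cortex and thalamus. The difference, thalamus minus cortex, was -0.78 on the log2 scale for miR-182 (SE 0.86) and -0.81 for miR-183-5p (SE 0.94), and edgeR's adjusted p was 1.00 for both. Of the 407 miRNAs tested, 0 passed in edgeR or in DESeq2 (0%), and 16 had an unadjusted p under 0.05 in edgeR.

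**Figure D2:**
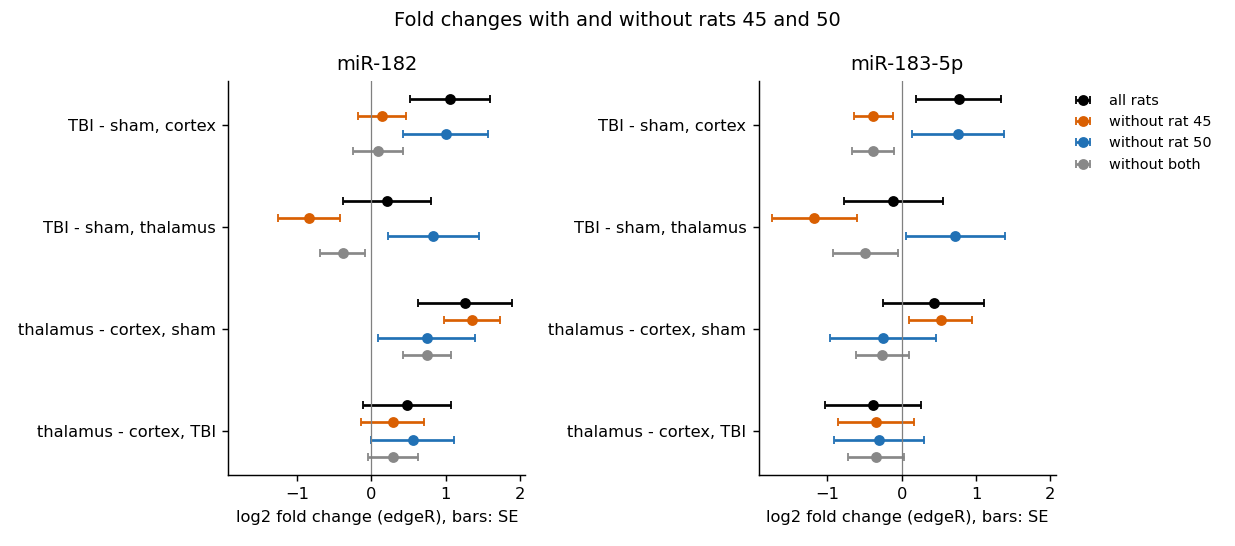
Points are log2 fold changes from edgeR and bars are their SE, for miR-182 and miR-183-5p in the 4 comparisons named at the left, with all rats, without rat 45, without rat 50 and without both. Leaving out rat 45 moved the cortex value of miR-182 from 1.06 to 0.14 and that of miR-183-5p from 0.77 to -0.38, and in thalamus the removal of rat 45 or rat 50 moved the values to opposite sides of 0.

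Between regions, miR-182 was the member that stood higher in thalamus. In sham rats its level was higher in thalamus than in cortex in 5 of 6 animals, rat 26 being the exception, and in TBI rats in 4 of 6, with rats 22 and 52 as exceptions. The log2 fold change of thalamus over cortex in sham rats was 1.26 (SE 0.63), which did not pass in edgeR without regard to the animal (adjusted p = 0.154). With the rat as a block, so that the libraries of a rat were compared with each other, it was 0.98 (SE 0.32) and passed (edgeR adjusted p = 0.0272). Region differences were common, since 128 of 407 miRNAs (31.4%) passed in sham rats with the block and 102 (25.1%) without it, the latter 52 higher and 50 lower in thalamus. The median over all 407 was 0.04.

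With the block, leaving out sham rat 50 gave 0.70 (edgeR adjusted p = 0.0918) and leaving out sham rat 34 gave 0.94 (edgeR adjusted p = 0.0774), and the call held without any of the other 10 rats. Leaving out rats 45 and 50 together gave 0.71 (edgeR adjusted p = 0.102). In the fit that set the animal aside, the fold change was 0.74 without sham rat 50 (edgeR adjusted p = 0.443). Without TBI rat 45, which is in neither group of this contrast and enters only through the shared filter, scaling and spread, it was 1.35 and passed (edgeR adjusted p = 0.00888). Without both rats it was 0.75 (SE 0.33, edgeR adjusted p = 0.117). In bulk tissue, a change in the number of cells that hold a miRNA and a change in its amount per cell cannot be told apart.

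In TBI rats the log2 fold change of thalamus over cortex for miR-182 was 0.48 (SE 0.59, edgeR adjusted p = 0.600), against a background of 111 of 407 miRNAs that passed (27.3%). Its value with the rat as a block was 0.25. For miR-183-5p the fold change was 0.43 in sham rats (SE 0.68, edgeR adjusted p = 0.683) and -0.39 in TBI rats (SE 0.65, edgeR adjusted p = 0.688). It was higher in thalamus in 3 of 6 sham and 1 of 6 TBI rats, the latter being rat 56. In sham rats its fold change was 0.01 with the rat as a block and turned to -0.26 without rat 50.

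The balance of miR-182 to miR-183-5p within a library differed between the regions. The ratio was taken of their reads with 0.5 reads added to each count. In sham cortex it ran from 0.467 to 1.41 with a median of 0.810, and miR-182 had the more reads in 2 of 6 libraries. In TBI cortex it ran from 1.01 to 2.60 with a median of 1.20, and miR-182 led in 6 of 6. In sham thalamus the range was 1.13 to 4.23 (median 1.71), and in TBI thalamus 1.30 to 3.92 (median 2.06). Thus miR-182 was ahead of miR-183-5p in every thalamus library, and in sham cortex it was mostly behind. A ratio of reads within a library does not depend on scaling, though adaptor ligation can weigh sequences unequally, so only changes of the ratio were tested. Reads that fit both sequences, which share 18 of 22 bases, were assigned by a rule not known here, and the part of such reads in the ratio was not tested.

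On the log2 scale, with 0.5 reads added to each count, the ratio averaged 0.99 ± 0.59 in thalamus and 0.11 ± 0.63 in cortex (SD, n = 12 rats). It was higher in thalamus in 11 of 12 rats, with rat 56 the exception, whose thalamus held 8 reads of miR-182 and 5 of miR-183-5p. The mean difference was 0.87, with a two-sided exact permutation p over all 4096 sign changes of 0.00342, adjusted to 0.0308 over the 9 ratio tests made. The difference was between 0.72 and 1.02 with any rat left out, but the adjusted p stayed under 0.05 only without rat 22, 26 or 56 and came to between 0.0527 and 0.0615 without each of the other 9 rats. Without rats 45 and 50 the difference was 0.83 (exact permutation test, adjusted p = 0.123).

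TBI against sham, the log2 ratio in cortex averaged 0.45 ± 0.49 in TBI and -0.22 ± 0.61 in sham rats (n = 6 each). That difference of 0.68 did not pass (exact permutation p = 0.0584, adjusted p = 0.255). In thalamus it was 0.14 (exact permutation p = 0.684, adjusted p = 0.849). None of the 6 ratio tests that involved miR-96-5p passed, and where that member had 0 reads, as in 10 of 24 libraries, its side of the ratio was the added 0.5 reads, which made the ratio depend on depth. The closest was miR-183-5p over miR-96-5p between the regions, with a thalamus minus cortex difference of -0.74 on the log2 scale (exact permutation p = 0.0850, adjusted p = 0.255).

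**Figure D3:**
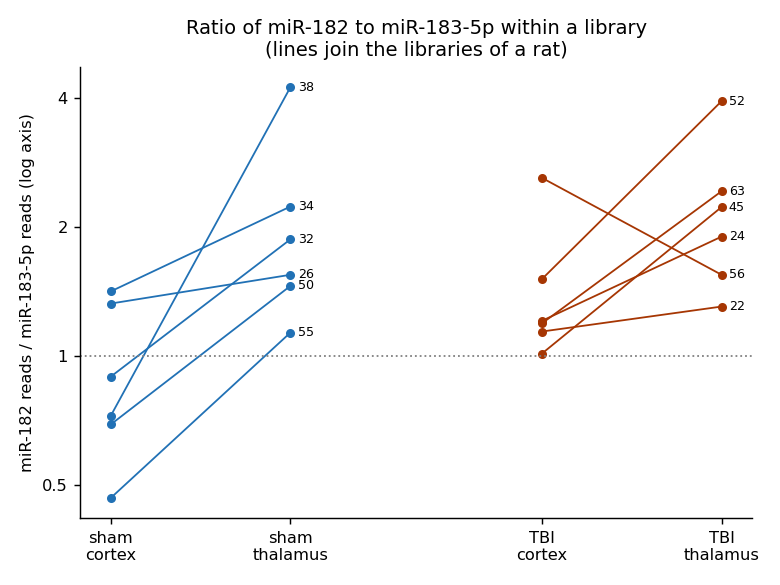
Reads of miR-182 divided by reads of miR-183-5p in each library, with 0.5 reads added to each count, on a log axis. A line joins the cortex and thalamus libraries of each rat, and the dotted line marks an equal number of reads. The line rises from cortex to thalamus in 11 of 12 rats and falls in rat 56, and all thalamus points lie above 1.

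Whether the members moved together across animals was asked within each region, on log2(CPM + 1) values taken as deviations from the group means over 12 libraries. miR-182 and miR-183-5p had a Pearson r of 0.84 in cortex (permutation p = 0.00458, adjusted over 9 relations to 0.0206) and 0.89 in thalamus (permutation p = 0.00114, adjusted 0.0103). Spearman's rho was 0.73 in cortex (permutation p = 0.0124) and 0.78 in thalamus (permutation p = 0.00678), each with an adjusted p of 0.0556. Reads shared between these like sequences could not be told apart in the counts, and their part in the relations was not tested. Both values of r were smaller without the high rats. Without the 2 libraries farthest along the miR-182 axis r was 0.44 in cortex (rats 45 and 26) and 0.59 in thalamus (rats 45 and 50). Without rats 45 and 50 it was 0.43 and 0.59 (permutation test, adjusted p = 0.380 for both). Spearman's rho without these 2 rats was 0.55 in cortex and 0.60 in thalamus (permutation test, adjusted p = 0.285 for both).

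Within groups of 6, r of miR-182 with miR-183-5p was 0.95 in TBI cortex, 0.91 in TBI thalamus, 0.47 in sham cortex and 0.89 in sham thalamus. None of these passed after adjustment (permutation tests, adjusted p of 0.0875, 0.1875, 0.655 and 0.150). In sham thalamus r was 0.92 without its 2 farthest libraries. Left out in turn, rat 45 ended the call in both regions (r = 0.42 in cortex and 0.80 in thalamus, with permutation adjusted p of 0.326 and 0.111), and rats 26 and 52 ended it in cortex at r = 0.87 and 0.84 (permutation adjusted p of 0.0588 and 0.103).

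The 4 relations that joined miR-96-5p to another member had r between 0.39 and 0.55, and none passed after adjustment over the 9 relations. From cortex to thalamus of the same rat, r was 0.58 for miR-182 (rho 0.25), 0.45 for miR-183-5p (rho -0.09) and 0.19 for miR-96-5p (rho 0.24), with adjusted permutation p of 0.187, 0.239 and 0.547 for r and of 0.650, 0.885 and 0.650 for rho. Without rats 45 and 50 the miR-182 value was -0.02 and the miR-183-5p value -0.59. Rat 45 was the only rat high in both regions.

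**Figure D4:**
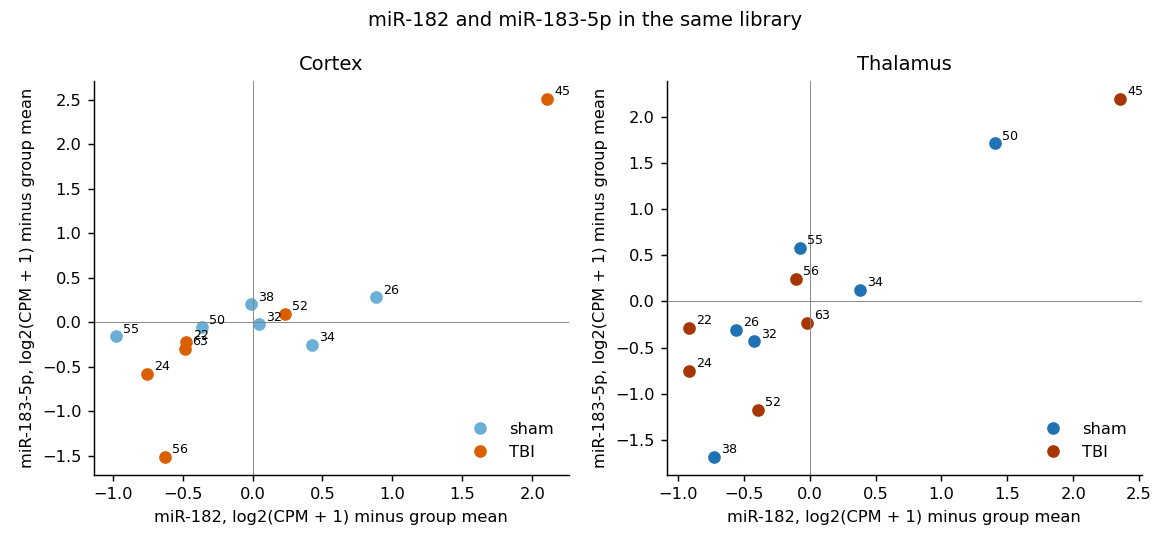
miR-182 against miR-183-5p in cortex and in thalamus, both as log2(CPM + 1) minus the mean of the library's group, with each point labelled by rat. Rat 45 lies at the upper right in both panels and rat 50 in thalamus, and the remaining points form a looser cloud.

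Among 360 miRNAs tested in both regions, the one most like miR-182 across libraries was miR-1298, with r of 0.87 in cortex and 0.94 in thalamus. These r values are descriptions over 12 libraries a region that share rat, depth and scaling with miR-182. The mean r of all 360 had a median of -0.02 and a 95th percentile of 0.52. miR-183-5p was second at 0.87, followed by miR-448-3p at 0.86, miR-204-5p at 0.83, miR-152-3p at 0.80 and miR-34c-5p at 0.77. Without rats 45 and 50, r of miR-1298 was 0.70 in cortex and 0.75 in thalamus, above that of miR-183-5p in both. The highest mean r of the 360 was then 0.78 and was not that of miR-1298, so the order did not hold. In cortex and thalamus r was then 0.77 and 0.50 for miR-448-3p and 0.51 and 0.39 for miR-204-5p. It was 0.26 and 0.82 for miR-152-3p and 0.56 and 0.59 for miR-34c-5p.

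Several of these miRNAs are known from the choroid plexus, the secretory tissue of the brain ventricles. miR-1298 and miR-448 lie within the gene of the serotonin 2C receptor, which is abundant there, miR-204 is a leading miRNA of choroid and pigment epithelium, and miR-34c is typical of ciliated cells. In the thalamus of rat 45 miR-1298 was at 10511 CPM, against 503 CPM in the next TBI library. There, miR-204-5p was at 13632 against 1967 CPM, and miR-448-3p at 602 against 43.3 CPM. The rat with the highest miR-182 exceeded its group by a wide margin for these miRNAs too. In sham thalamus rats 50 and 34 led with 3726 and 3532 CPM of miR-1298, and the same rats led the group in miR-182. These miRNAs were picked for a high r with miR-182 over the same libraries. High values in the libraries with high miR-182 follow from that choice, so they are a description only.

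A list of 7 choroid plexus and ciliated epithelium miRNAs (miR-204-5p, miR-211-5p, miR-449a-5p and both strands of miR-34b and miR-34c) was high in the same libraries. No member of the list was at 0 in all libraries. Its summed level was 1181 to 2539 CPM in sham cortex and 1252 to 3513 CPM in TBI cortex, where the highest library was rat 45 and the next had 1956 CPM. In thalamus it was 2558 to 8040 CPM in sham rats, with rat 34 at 8040 and rat 50 at 7552, and 2091 to 20294 CPM in TBI rats, with rat 45 at 20294 and the next at 4537 CPM. Most of the sum was miR-204-5p and miR-34c-5p, at 13632 and 5754 CPM in the thalamus of rat 45 and 2170 and 1109 CPM in its cortex. Both were among the miRNAs picked above for a high r with miR-182, so the sum is a description only. Rat 45 had the highest TBI value for 5 of the 7 in cortex and 6 of the 7 in thalamus, and rat 50 the highest sham thalamus value for 3 of 7. The median r with miR-182 of the 5 members tested in both regions was 0.71, and 0.45 without rats 45 and 50, when the members ranged from -0.10 to 0.58. The part of this tissue in the levels of the cluster was not tested.

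The list was also mostly higher in thalamus. Of its 6 members tested, 4 were higher in thalamus in sham rats and 5 in TBI rats (edgeR adjusted p under 0.05), against backgrounds of 12.8% and 14% of 407 miRNAs that were higher, with a median log2 fold change of 2.49 in sham rats. In cortex 1 of its 5 tested members was higher in TBI than in sham rats, against a background of 2.96%. That member was miR-211-5p, with a log2 fold change of 1.33 (SE 0.34, edgeR adjusted p = 0.0369). None of its 6 tested members differed by injury in thalamus.

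**Figure D5:**
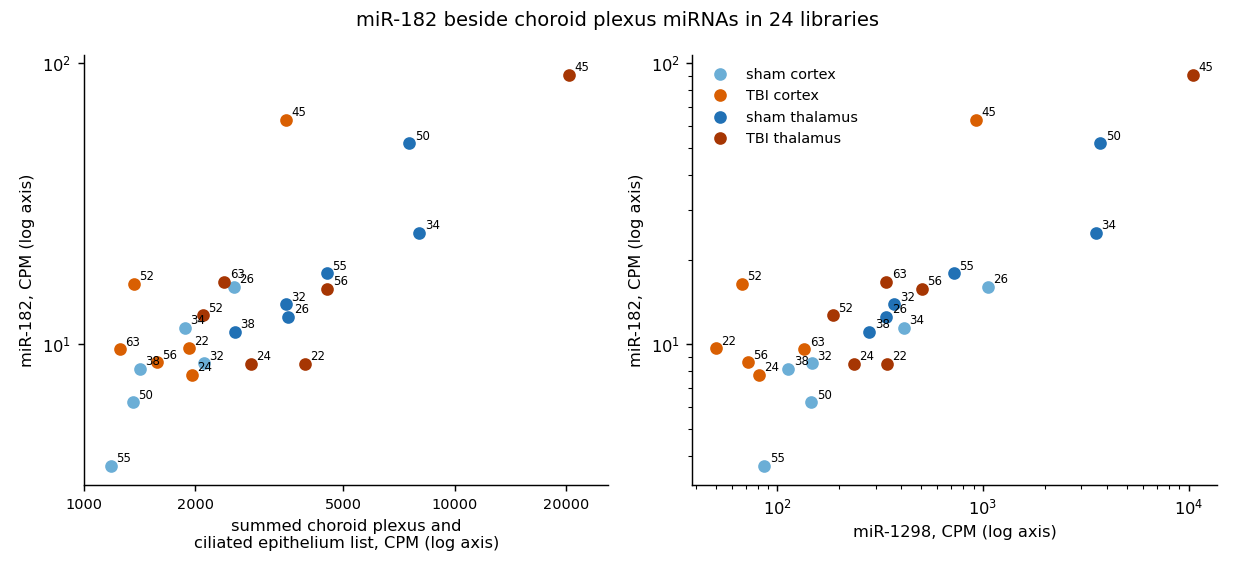
miR-182 in CPM (log axis) against the summed level of 7 choroid plexus and ciliated epithelium miRNAs (left) and against miR-1298 (right), both in CPM on log axes, with 1 point a library in the colours of the 4 groups and labels giving the rat. Rat 45 thalamus is at the upper right of both panels, followed by the sham thalamus libraries of rats 50 and 34, and the cortex of rat 45 lies above the other libraries of similar choroid list level.

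A list of the miR-200 family held 5 miRNAs typical of epithelial cells (miR-200a-3p, miR-200b-3p, miR-200c-3p, miR-141-3p and miR-429). Like the choroid list, its sum was highest in rat 45 among TBI rats in both regions. The cortex of rat 45 had 135 CPM, while the other TBI cortex libraries had at most 19.2 and the sham cortex libraries 6.16 to 15.5 CPM. The thalamus of rat 45 had 52.8 CPM, with the other TBI thalamus libraries at 29.5 or less. For sham rat 50, the miR-200 list was not raised in thalamus, at 12.2 CPM within a sham range of 9.02 to 20.5. So the high libraries shared a high sum of the choroid list, while the sum of the miR-200 list was raised in rat 45 alone among the rats with high miR-182. Not all members followed the sums. In the thalamus of rat 50 miR-204-5p alone made up 4890 of 7552 CPM, and 3 of the 7 choroid list members were highest there. Rat 45 was the highest TBI library for 4 of the 5 miR-200 members in cortex and 3 of 5 in thalamus. The part of these cells in the result was not tested.

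The lists for other cell types gave a lower median r with miR-182, but single members overlapped with the choroid list. Members ranged from 0.49 to 0.83 in the choroid list and from -0.27 to 0.55 in the vessel and blood list. The 1 miR-200 member tested in both regions, miR-200c-3p, had 0.54, and 0.37 without rats 45 and 50. Without these rats the vessel and blood members ranged from -0.38 to 0.62 and the choroid members from -0.10 to 0.58. The neuronal list (miR-124-3p, miR-9a-5p, miR-128-3p and miR-132-3p) and the oligodendrocyte list (both strands of miR-338, miR-219a-5p and miR-219a-2-3p) were present in every group, and rat 45 was the highest TBI library for none of their 8 members in either region. The median r with miR-182 was -0.04 for the neuronal list and -0.13 for the oligodendrocyte list. For 6 leukocyte and microglial miRNAs, which include miR-142, miR-155-5p and miR-146a-5p, the median r over the 5 tested in both regions was 0.24, and rat 45 was highest for 3 of 6 in cortex and 5 of 6 in thalamus. The list of vessel and blood miRNAs, such as miR-126a and miR-143-3p, had a median r of 0.26, and rat 45 was highest for 2 of 6 in cortex and 4 of 6 in thalamus. Its summed level was also highest in rat 45 among TBI rats, at 60708 CPM in cortex against 52309 in the next and at 54293 CPM in thalamus against 43388. The neuroendocrine list (miR-375-3p, miR-7a-5p and miR-7b) had a median r of -0.32, with miR-375-3p at 0.49, miR-7a-5p at -0.32 and miR-7b at -0.45. Members ranged from -0.47 to 0.12 in the neuronal, -0.34 to 0.07 in the oligodendrocyte and -0.30 to 0.48 in the leukocyte and microglial list. The medians without rats 45 and 50 were 0.20 for the neuronal, 0.02 for the oligodendrocyte, -0.07 for the leukocyte and microglial, -0.08 for the vessel and blood and -0.27 for the neuroendocrine list.

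Some members of these lists differed by injury or region. In cortex 2 of the 4 neuronal miRNAs were lower in TBI, against a background of 2.7%, while the 4 log2 fold changes ran from -0.75 to 0.15. They were miR-128-3p and miR-132-3p (-0.75 and -0.55, edgeR adjusted p of 0.0231 and 0.0369). Of the 3 neuroendocrine miRNAs 1 was higher, against 2.96%, namely miR-375-3p by 1.78 (edgeR adjusted p = 0.0231). In thalamus 2 of the 5 tested leukocyte and microglial miRNAs were higher in TBI, against 0.513%. They were miR-155-5p and miR-146a-5p, by 1.45 and 1.04 (edgeR adjusted p of 0.0207 for both). Between regions, all 4 oligodendrocyte miRNAs and 2 of 3 neuroendocrine miRNAs were higher in thalamus in both sham and TBI rats by edgeR's adjusted p, against the 12.8% and 14% of all miRNAs tested. Of the 4 neuronal miRNAs, 3 were lower in thalamus in sham and 4 in TBI rats, against 12.3% and 13.3%. Of the 6 vessel and blood miRNAs 1 was lower in thalamus in sham rats, and no tested leukocyte, microglial or miR-200 miRNA passed between regions.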

How the data were processed

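Small RNA libraries of 300 ng total RNA were made with a NEBNext kit and sequenced on an Illumina NextSeq 500. Per the study's methods, adapters were trimmed and reads were mapped to the rat assembly RGSC3.4 with miRBase names; the aligner was not given in the sources used here. The authors deposited raw read counts per miRNA and library, in a table for each region, and these counts were used as deposited. The CPM tables the authors also deposited were not used.

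Sample titles gave each library's group and rat. Counts were tested with edgeR 4.0.16 in R 4.3.3 (filterByExpr, TMM, quasi-likelihood test, Benjamini-Hochberg over all miRNAs tested, threshold 0.05), for injury within each region (12 libraries) and for region and the interaction over all 24. SE values follow from the fold change and the F statistic. Levels are CPM with TMM factors over the 24 libraries. Ratios were tested with exact permutation tests and relations with 100000 resamples within groups (SciPy 1.17.1, NumPy 2.4.6). The edgeR fits without the rat as a block were tested on simulated data in which all libraries were independent. The fits with the block were not tested in this way.

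The same number is the same animal, so cortex and thalamus are paired. Deviations of the libraries of a rat had a median r of 0.45 over 12 rats (-0.27 to 0.67, with 8 above 0.1). In TBI rats r ran from 0.33 to 0.67. In sham rats it ran from -0.27 to 0.58, with rats 26, 32 and 50 below 0 and rat 55 at 0.03. The call of miR-182 with the rat as a block was made in sham rats. TBI and sham rats share no number. No libraries were duplicates (smallest chi-square per degree of freedom 31.4 in cortex and 71.8 in thalamus). Alternatives were DESeq2 1.42.0 (test and size factors), library size only, other filters, a fit of all 24 libraries, the rat as a block, other priors and leaving out rats.

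The members and lists were chosen with earlier results of these data known. Named miRNAs were the members, any miRNA with a member's seed, the 5 others most like the member with most reads, and of each marker list at most 3 past the threshold in an injury comparison. RefSeq sequences and coordinates are of GRCr8, not of the build of the counts.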

Additional observations from a re-analysis of the deposited data

Results flagged for a closer look

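In each group of 6 libraries, the gap from the highest or lowest library to its neighbour was compared with the whole range of the group, for the members, the miRNAs most like miR-182 and the choroid plexus and ciliated epithelium list. By Dixon's criterion (a gap over 0.625 of the range) a library stood apart in 8 of 16 groups of the members and their ratio and in 14 of 24 groups of the like miRNAs and the list. Chance marks about 1 in 20 independent groups where values are normally distributed, which the CPM of scarce miRNAs need not be. The groups share libraries. The like miRNAs were chosen for moving with miR-182 and the list with earlier results of these data known. Both the 8 and the 14 are therefore a description only.

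TBI rat 45 was the library that stood apart for miR-182 at 62.8 CPM in cortex and 91.0 CPM in thalamus, for miR-183-5p at 62.0 and 40.9 CPM, and for miR-96-5p at 1.53 CPM in cortex, the last being 2 reads. The same rat stood apart for miR-1298 at 920 CPM in cortex and 10511 CPM in thalamus, for miR-448-3p at 53.6 and 602 CPM, and for miR-204-5p at 2170 and 13632 CPM. It also did for miR-152-3p at 817 and 691 CPM, for miR-34c-5p at 1109 and 5754 CPM, and for the summed list at 3513 and 20294 CPM.

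Among sham rats, rat 50 stood apart in thalamus for miR-182 at 51.9 CPM and for miR-96-5p at 3.70 CPM, the latter being 10 reads. Rat 38 stood apart in cortex for miR-96-5p at 3.18 CPM, rat 26 in cortex for miR-1298 at 1060 CPM, and rat 34 in thalamus for miR-152-3p at 318 CPM.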

How the results depend on the processing

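Depth and single animals limit these results: the tested members had as few as 2 reads in a library, miR-96-5p fell under the filter of the edgeR fits, and leaving out 1 rat turned the sign of 25 of 504 values. The alternatives without rats 45 and 50, and without each rat for the relations and for the fits with the rat as a block, were chosen after seeing the data. The cause of a change was not tested.

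With the rat as a replicate block, miR-182 passed in sham rats at 0.98 (edgeR adjusted p = 0.0272) and the pairing changed no other call of a member. With this block and without rats 45 and 50 it was 0.71 and no longer passed, and miR-183-5p turned to -0.33. With the block and 1 rat left out, miR-182 was 0.70 to 1.31 and miR-183-5p -0.33 to 0.39, and the interaction had 0 to 1 calls. Without the block, miR-182 also passed in sham rats with library size only, at 1.74, where the median of all miRNAs was 0.46. The count of miRNAs called in cortex was 39 with library size only (36 higher and 3 lower, median 0.25), 35 in DESeq2, 5 in the fit of all 24 libraries and 3 without rats 45 and 50. In thalamus it was 1 with a mean of at least 50 reads, 5 in the fit of all 24 and 0 without rats 45 and 50. For the region in sham rats it was 168 with library size only (146 higher and 22 lower), and in TBI rats the split with that scaling became 69 higher and 34 lower.

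Without rats 45 and 50, signs turned for miR-183-5p in cortex (-0.39), miR-182 in thalamus (-0.39), miR-183-5p between regions in sham rats (-0.26) and the log2 ratio of miR-183-5p to miR-96-5p in cortex (-0.10). The region difference of the miR-182 to miR-183-5p ratio, 0.83, then no longer passed, nor did the relations of these members, r = 0.43 in cortex and 0.59 in thalamus. Their r to miR-96-5p turned to -0.052 for miR-182 in cortex and to -0.15 and -0.22 for miR-182 and miR-183-5p in thalamus, and r between regions to -0.021 and -0.59. Within TBI rats the relations of miR-182 and miR-183-5p, 0.95 in cortex and 0.91 in thalamus, did not pass, nor did those within sham rats, 0.47 and 0.89, where r between regions turned to -0.30 for miR-182 and -0.55 for miR-183-5p.

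With 1 rat left out, the calls numbered 4 to 30 in cortex and 0 to 2 in thalamus, 77 to 109 for the region in sham and 87 to 121 in TBI rats. The injury fold change was 0.14 to 1.24 for miR-182 and -0.38 to 0.96 for miR-183-5p in cortex, and -0.84 to 0.84 and -1.18 to 0.72 in thalamus. The region fold change in sham rats was 0.74 to 1.65 and -0.26 to 0.71. The log2 ratio of miR-182 to miR-183-5p differed by -0.043 to 0.37 for injury in thalamus and 0.72 to 1.02 between regions. That of miR-182 to miR-96-5p differed by -0.70 to 0.045 for injury in thalamus and -0.053 to 0.34 between regions, and that of miR-183-5p to miR-96-5p by -0.30 to 0.52 for injury in cortex. r of miR-182 and miR-183-5p was 0.42 to 0.89 in cortex and 0.80 to 0.91 in thalamus, and r between regions -0.20 to 0.74 for miR-182 and -0.46 to 0.58 for miR-183-5p. In all, 138 of 168 values under the other alternatives and 451 of 504 with a rat left out kept their direction and their side of the threshold or, for counts, stayed within 1.5 times.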
